A study of Mus musculus with 8 samples.

Results

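The MOB genes examined are Mob1a, Mob1b, Mob2, Mob3a, Mob3b and Mob3c. They were taken by symbol, after Ensembl gene identifiers had been matched to symbols, and make up 6 of 52636 gene identifiers in the count files. All 6 had enough reads to be tested, among 15517 tested genes. Knockout (KO) cells were E14 mouse embryonic stem cells labelled as KLF4 knockouts, and they were set against wild-type E14 cells (WT). E14 is a line grown from a blastocyst, the early mouse embryo, and both genotypes share that background. The culture notes name the same media for every sample, all with 15% serum. One medium adds 10 ng/mL LIF, the MEK inhibitor PD0325901 at 1 µM and the GSK3 inhibitor CHIR99021 at 3 µM, and the other 1000 U/mL LIF. RNA-seq comprised 2 KO libraries, called B and F in the deposited files, and 2 WT libraries. Contacts between sites occupied by RNA polymerase II came from HiChIP, a method that joins nearby chromatin ends and counts the joined fragments as paired-end tags (PETs). HiChIP has 2 samples per genotype in the labels and was analysed as 1 pooled file per genotype.

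MOB proteins are small adaptor proteins without enzyme activity. Some of them bind protein kinases of the NDR and LATS group, and MOB1 proteins help to switch these kinases on. This links the family to the Hippo pathway, where LATS kinases restrain the transcription co-activators YAP and TAZ. Mob1a and Mob1b encode closely related proteins that bind both LATS and NDR kinases and stand in for each other in mice, and embryos that lack both die early. MOB2, studied mostly in human cells, binds NDR kinases but not LATS kinases and competes there with MOB1. Human MOB3 proteins bind neither, and have been linked to the kinase MST1 instead. YAP and its DNA-binding partners, the TEAD factors, are active in mouse embryonic stem cells and in the blastocyst.

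Klf4 reads were absent from both KO libraries (0 and 0 counts), against 2882 and 2421 counts in the WT libraries. Libraries held 8448519 and 8287497 gene counts in KO and 9020599 and 9762190 in WT. Pluripotency markers were abundant in every library, with 8 markers summing to 7201 to 7928 CPM in KO and 6334 to 8331 CPM in WT. CPM is the read count scaled to a common library size, here after TMM normalization, which corrects for differences in RNA composition. Summed fibroblast markers stood at 17.9 to 23.2 CPM in KO and 25.4 to 25.8 CPM in WT, with 2 of 8 markers at 0 everywhere. Neural progenitor markers summed to 13.4 to 20.1 CPM in KO and 34.9 to 38.4 CPM in WT, and primitive endoderm markers to 6.63 to 9.58 CPM in KO and 7.65 to 8.70 CPM in WT. Among the pluripotency markers Utf1 rose 5.21-fold (edgeR FDR 0.0052). In the other lists Pax6 (log2 fold change 6.16) and Gata6 (2.91) rose and Nes (-2.05) fell, with edgeR FDRs of 0.0097, 0.026 and 0.011. Counts were low, at 55 and 26 in KO and 1 and 0 in WT for Pax6. Gata6 had 25 and 24 counts in KO and 4 and 3 in WT, and Nes 70 and 50 in KO and 258 and 294 in WT. Y-linked Eif2s3y and Ddx3y had 0 counts in both KO libraries, against 845 and 769 counts and 641 and 344 counts in WT. The part of these differences in the results on MOB genes was not tested.

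Mob3c fell in KO cells and Mob3b pointed the same way short of the threshold, while Mob1a, Mob1b, Mob2 and Mob3a did not pass it in either direction. Tests used edgeR's quasi-likelihood method, with calls made at an FDR (false discovery rate) under 0.05. Of the 6 genes, 1 was called lower in KO and 0 higher, and 2 had an unadjusted p under 0.05. The share of all tested genes with such a p is not given, so these counts, here and below, have no background beside them. For Tet3, a gene near Mob1a picked for its p, an unadjusted edgeR p of 0.051 went with an FDR of 0.21. Of the 6 genes DESeq2 called 2 lower and limma voom 1, with 0 higher in each. The shares of all tested genes that these tools called are not given here. Of all tested genes edgeR called 8.3%, made up of 5.34% lower and 2.96% higher. Mob3c was 3.07-fold lower and Mob3b 2.73-fold lower, and the intervals of the other 4 included no change. The median log2 fold change of the 6 was -0.09, against -0.0015 over all tested genes. Read totals fall with fewer expressing cells and with less RNA per cell alike, and bulk libraries cannot tell these apart.

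**Figure D1:**
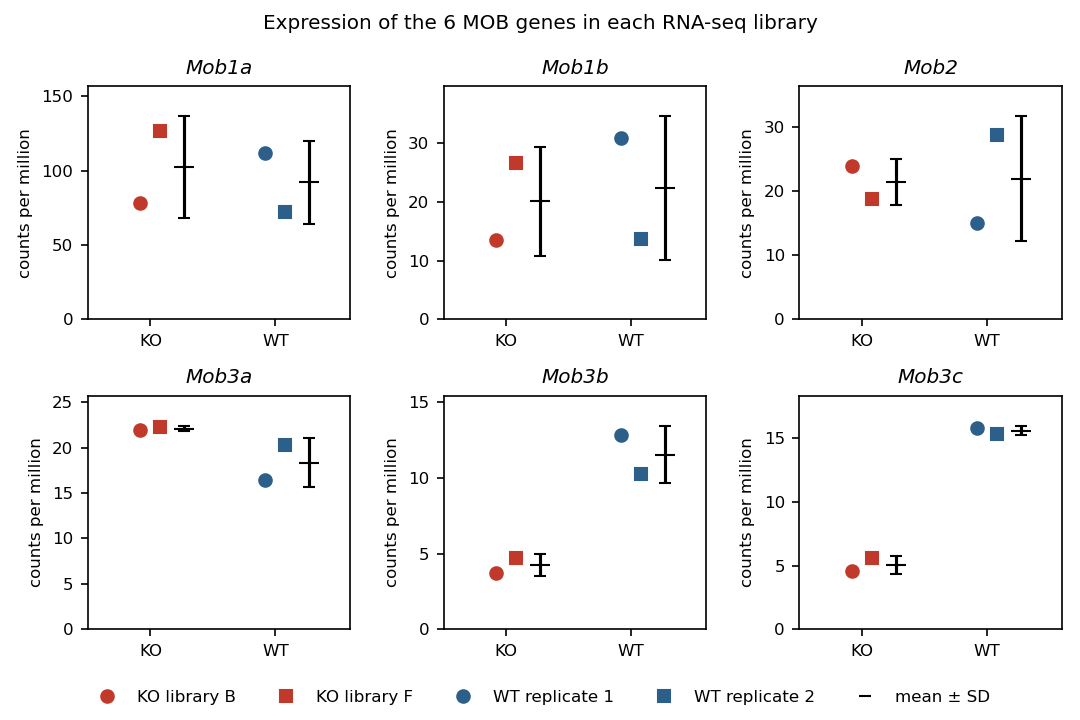
Levels in CPM of the 6 MOB genes in each RNA-seq library, with KO libraries in red on the left of each panel, WT libraries in blue on the right, and the mean ± SD of 2 libraries in black. Mob3b and Mob3c had both KO libraries below 6 CPM and both WT libraries above 10 CPM, whereas the genotypes overlapped for Mob1a, Mob1b and Mob2.

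Among the MOB1 genes, the binding partners of LATS and NDR kinases, no genotype difference exceeded the spread between libraries. Mob1a (ENSMUSG00000043131, chromosome 6, 83326034 to 83342812, mm10) was measured at 78.0 and 126.4 CPM in KO libraries B and F, against 111.8 and 72.3 CPM in WT replicates 1 and 2. The genotypes overlapped, with 1 high and 1 low library in each. Its log2 fold change was 0.15 (95% interval -0.59 to 0.89, edgeR FDR 0.82). Mob1b (ENSMUSG00000006262, chromosome 5, 88720871 to 88758455) stood at 13.5 and 26.6 CPM in KO, against 30.9 and 13.6 CPM in WT. The same libraries were high, KO library F and WT replicate 1, and the log2 fold change was -0.15 (-1.22 to 0.92, edgeR FDR 0.88). The intervals of both genes hold changes of 1.5-fold in either direction. Without WT replicate 1 the log2 fold change of Mob1b was 0.56 (edgeR FDR 0.43), and without KO library F it was -0.71 (edgeR FDR 0.60). Mob1a likewise had -0.23 without KO library F and 0.49 without WT replicate 1.

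Since the MOB1 proteins are near copies, the split of reads between their genes was also followed. Mob1a held 85.2% of the summed Mob1a and Mob1b reads in KO library B (exact binomial 95% interval 82.5% to 87.7%, of 764 reads) and 82.6% in KO library F (80.4% to 84.6%, of 1292 reads). In WT the share was 78.3% in replicate 1 (76.0% to 80.5%, of 1343 reads) and 84.2% in replicate 2 (81.4% to 86.7%, of 790 reads). The WT replicates differed from each other more than the KO libraries did, and WT replicate 2 lay between the KO libraries. These intervals cover counting error only, and reads from stretches that the paralogs share may have been lost or misplaced in counting.

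Mob2 (ENSMUSG00000025147, chromosome 7, 142008517 to 142061059), the competitor of MOB1 for NDR kinases in human cells, had 24.0 and 18.8 CPM in KO and 15.1 and 28.8 CPM in WT. Both KO values lay between the WT values. Its log2 fold change was -0.04 (-0.89 to 0.81, edgeR FDR 0.96). High and low libraries were the opposite of those of the MOB1 genes, with WT replicate 2 highest and WT replicate 1 lowest.

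Of the MOB3 genes, Mob3c alone passed the threshold. Mob3a (ENSMUSG00000003348, chromosome 10, 80685253 to 80701820) was measured at 21.9 and 22.3 CPM in KO, against 16.5 and 20.2 CPM in WT. Both KO libraries lay above both WT libraries, as they did for 26.0% of all tested genes, and the log2 fold change of 0.27 (-0.40 to 0.94) missed the threshold (edgeR FDR 0.63). Mob3b (ENSMUSG00000073910, chromosome 4, 34949074 to 35157524) had 3.71 and 4.74 CPM in KO, from 31 and 40 counts, against 12.9 and 10.2 CPM in WT, from 121 and 94 counts. The genotypes did not overlap, and the mean was 4.23 ± 0.725 CPM in KO and 11.5 ± 1.86 CPM in WT (SD, n = 2 each). Its log2 fold change of -1.45 (-2.33 to -0.56) had an edgeR FDR of 0.058. That FDR was 0.038 without WT replicate 2, 0.21 without KO library B, 0.088 without KO library F and 0.11 without WT replicate 1.

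Mob3c (ENSMUSG00000028709, chromosome 4, 115827886 to 115836185) had 4.55 and 5.57 CPM in KO, from 38 and 47 counts, against 15.8 and 15.3 CPM in WT, from 149 and 141 counts. The WT replicates lay close together and far above both KO libraries, and the mean was 5.06 ± 0.718 CPM in KO and 15.6 ± 0.351 CPM in WT (SD, n = 2 each). Its log2 fold change was -1.62 (-2.43 to -0.81, edgeR FDR 0.030). Without KO library B it was -1.48 and the call was lost (edgeR FDR 0.11). Both KO libraries lay below both WT libraries for Mob3b and Mob3c, as for 27.5% of all tested genes. Whether the change of Mob3c differed from that of Mob3a was not tested.

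Mob3b and Mob3c lie 80.7 Mb apart on chromosome 4, which also carries Klf4. Of 969 tested genes placed on that chromosome, 60 were lower and 24 higher in KO. The lower calls made up 6.19%, against 5.34% over all tested genes, and the chromosome's median log2 fold change was -0.04. Mob3b carries the gene Ifnk within its annotated span, and 2 non-coding genes overlap that span. Ifnk had 1 and 0 counts in KO and 1 and 1 in WT. The spans of the other members overlapped no annotated gene, except for a pseudogene overlapping Mob1b, with 6 and 4 counts in KO and 2 and 6 in WT.

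**Figure D2:**
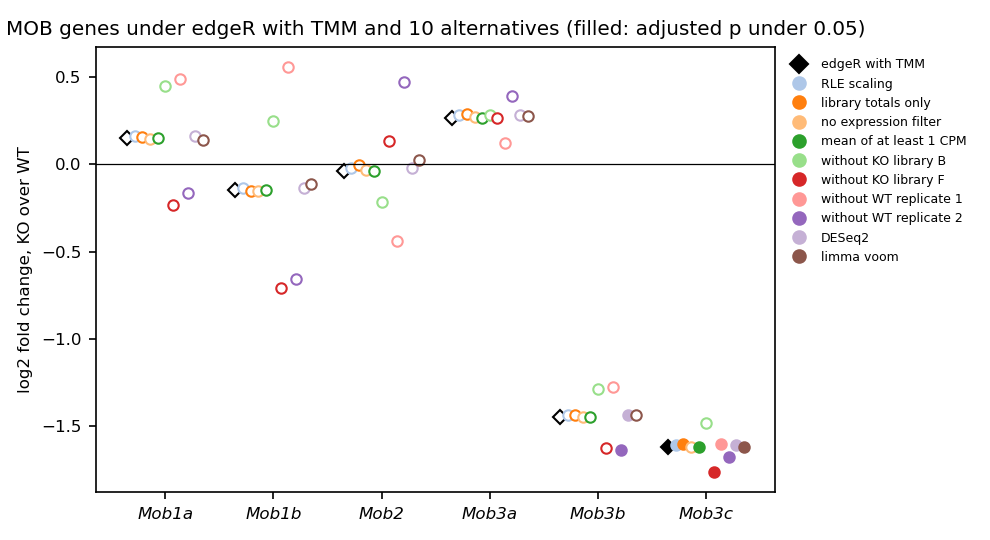
Log2 fold change (KO over WT) of each MOB gene under edgeR with TMM scaling (black diamonds) and under 10 alternatives (circles), filled where the adjusted p was under 0.05. Mob3b and Mob3c stayed between -1.76 and -1.28 throughout, and Mob1a, Mob1b and Mob2 took both signs depending on which library was left out.

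The promoter windows of the MOB3 genes are shown because Mob3c, the one called member, can be set there beside its paralogs. Each runs from 250 bases before to 50 bases after an annotated start, in RefSeq sequence of GRCm38.p6. That build is the patched form of mm10, and the sequence is read in the direction of the gene. The starts used are 80701820 for Mob3a, 35157484 for Mob3b and 115828080 for Mob3c. Those of Mob3b and Mob3c lie inside the gene's span, whose outer ends are 35157524 (minus strand) and 115827886 (plus strand). All 4 GC boxes marked for Mob3c therefore fall inside its annotated span. Capitals mark GC boxes (GGGCGG) and CACCC boxes, on either strand, both known as binding sequences of SP and KLF factors. The windows are chr10:80701771-80702070 (minus strand) for Mob3a, chr4:35157435-35157734 (minus strand) for Mob3b and chr4:115827830-115828129 (plus strand) for Mob3c.
Mob3a: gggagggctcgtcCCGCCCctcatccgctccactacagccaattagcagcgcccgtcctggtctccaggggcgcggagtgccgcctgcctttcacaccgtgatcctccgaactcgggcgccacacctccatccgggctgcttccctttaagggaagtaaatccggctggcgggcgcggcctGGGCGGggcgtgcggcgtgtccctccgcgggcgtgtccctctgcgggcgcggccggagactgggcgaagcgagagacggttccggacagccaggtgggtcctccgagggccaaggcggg
Mob3b: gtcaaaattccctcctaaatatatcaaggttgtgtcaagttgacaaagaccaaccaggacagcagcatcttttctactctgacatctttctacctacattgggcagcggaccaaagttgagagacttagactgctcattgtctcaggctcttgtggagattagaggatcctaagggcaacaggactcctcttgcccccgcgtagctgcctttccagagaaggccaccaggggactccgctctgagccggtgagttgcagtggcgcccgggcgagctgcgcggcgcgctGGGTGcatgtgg
Mob3c: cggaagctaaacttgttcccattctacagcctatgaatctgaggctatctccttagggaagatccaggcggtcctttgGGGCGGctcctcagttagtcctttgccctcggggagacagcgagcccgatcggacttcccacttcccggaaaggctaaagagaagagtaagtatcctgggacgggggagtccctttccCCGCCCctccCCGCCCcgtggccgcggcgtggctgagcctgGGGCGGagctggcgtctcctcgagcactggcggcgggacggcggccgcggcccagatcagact
The Mob3c window held 4 GC boxes and no CACCC box, the Mob3a window 2 GC boxes and no CACCC box, and the Mob3b window no GC box and 1 CACCC box. GC content was 64.0% for Mob3c, 71.3% for Mob3a and 54.7% for Mob3b. A longer KLF-type motif, GGGNGTGG on either strand, occurred in none of the 9 windows annotated for the 6 members. Over all 32851 windows of this table, 17.6% held GGGNGTGG, 35.7% a GC box and 57.5% a CACCC box. Part of the GGGNGTGG matches contain a CACCC box. Of the TEAD-type motif CATTCC, present in 14.7% of windows, there was 1 match among the members, in that of Mob1a.

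The genes of 9 kinases and scaffolds that MOB proteins bind or work with were all tested. EdgeR, DESeq2 and limma voom each called 0, and the unadjusted edgeR p was under 0.05 for 3. Stk4, which encodes the upstream kinase MST1, had 74.7 and 100.2 CPM in KO, against 59.9 and 38.2 CPM in WT (log2 fold change 0.83, 0.14 to 1.53, edgeR FDR 0.14). Stk38, the gene of the NDR1 kinase, stood at 171 and 177.5 CPM in KO, against 268.5 and 257.9 CPM in WT (log2 fold change -0.59, -1.11 to -0.08, edgeR FDR 0.15). Fry, the gene of a large scaffold of NDR kinases, had 11.5 and 15.2 CPM in KO and 36.6 and 18.5 CPM in WT (-1.05, -1.94 to -0.15, edgeR FDR 0.15). Stk38l, encoding NDR2, had a difference of 0.42 on the log2 scale (-0.23 to 1.08, edgeR FDR 0.41). Libraries did not overlap between genotypes for these 4 genes, 2 of them lower in KO (27.5% of all tested genes) and 2 higher (26.0%). The remaining genes Lats1, Lats2, Fryl, Stk3 and Sav1 lay between -0.11 and 0.28, and Lats2 was near the detection limit with 7 and 13 counts in KO and 15 and 6 in WT. Single libraries moved Stk4 and Fry. Stk4 was at 1.19 and called higher without WT replicate 1 (edgeR FDR 0.010), but leaving out WT replicate 2 gave 0.51 (edgeR FDR 0.39) and leaving out KO library F gave 0.62 (edgeR FDR 0.63). Fry was at -1.49 and called lower without WT replicate 2 (edgeR FDR 0.0056), but at -0.48 without WT replicate 1 (edgeR FDR 0.49).

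**Figure D3:**
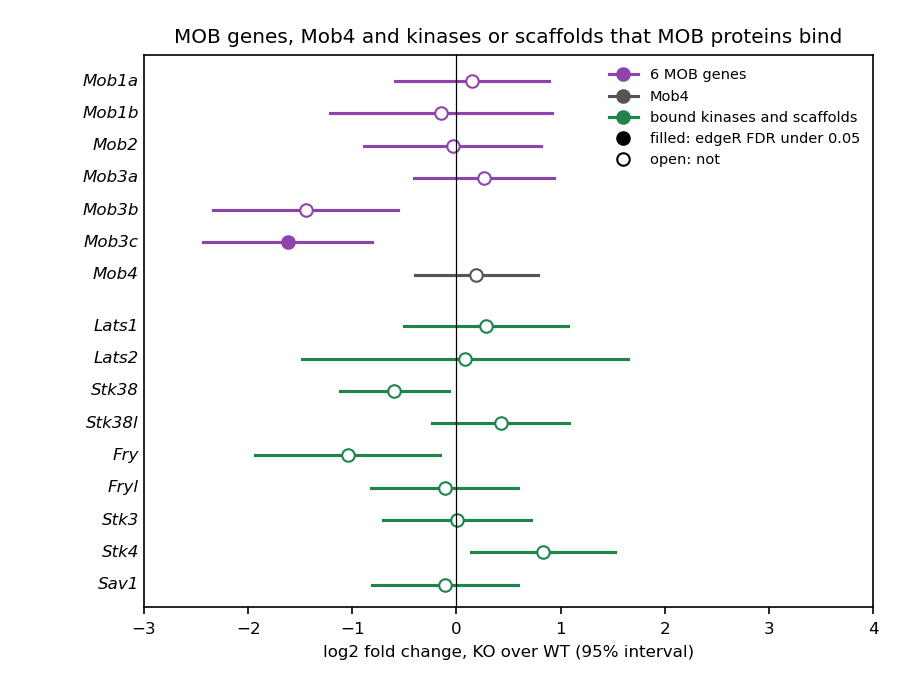
Log2 fold change (KO over WT) with its 95% interval for the 6 MOB genes, for Mob4 and for 9 kinases or scaffolds. MOB proteins bind or work with these 9, and points are filled where the edgeR FDR was under 0.05. Mob3c at -1.62 is the one filled point.

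Mob4, the most distant relative, encodes a subunit of the STRIPAK phosphatase complex, which counteracts MST kinases. It had 46.2 and 55.1 CPM in KO and 40.9 and 47.9 CPM in WT, with overlapping genotypes (log2 fold change 0.19, -0.40 to 0.78, edgeR FDR 0.70). Of 17 STRIPAK genes, each of these tools called 0. An unadjusted edgeR p under 0.05 was found for 1, Cttnbp2, at 2 and 4 counts in KO and 26 and 14 in WT (edgeR FDR 0.067). Next by p came Pdcd10 (log2 fold change 0.55, edgeR FDR 0.25), Ccm2 (0.45, edgeR FDR 0.37) and the phosphatase scaffold gene Ppp2r1b (0.42, edgeR FDR 0.37). Over the 17 genes the log2 fold change had a median of 0.22.

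Upstream Hippo genes held 1 rise and 1 fall among 25 tested of 28, beside 2.96% higher and 5.34% lower over all tested genes. Amotl2, whose angiomotin protein binds YAP, fell 2.77-fold to 53.1 and 64.8 CPM in KO, against 178.9 and 147.7 CPM in WT (edgeR FDR 0.013). Without KO library B that call was lost (edgeR FDR 0.10). Stk26, the gene of the kinase MST4, rose by a log2 fold change of 2.00 to 9.70 and 9.24 CPM in KO, against 3.29 and 1.41 CPM in WT (edgeR FDR 0.044), a call lost without WT replicate 2 (edgeR FDR 0.11) and with library totals (0.061). Mink1, a kinase gene, stood at 0.88 on the log2 scale (edgeR FDR 0.087), and Frmd6, of a FERM domain protein, one of -1.02 (edgeR FDR 0.10). The list's median was -0.34.

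Of 8 tested genes for YAP, TAZ, TEAD and VGLL proteins edgeR and limma voom called 0, and DESeq2 called 2 lower. The unadjusted edgeR p was under 0.05 for 4. The share of all tested genes that DESeq2 called is not given here. Tead4 had 11.9 and 22.0 CPM in KO, against 51.7 and 35.9 CPM in WT (log2 fold change -1.37, edgeR FDR 0.058). Vgll4, which encodes a competitor of YAP for TEAD, had 5.27 and 8.29 CPM in KO and 18.9 and 15.9 CPM in WT (-1.36, edgeR FDR 0.061). Both were called lower in DESeq2 (adjusted p 0.011 and 0.031). Without KO library B the edgeR FDR was 0.29 for each, with log2 fold changes of -0.996 for Tead4 and -1.07 for Vgll4, and without WT replicate 2 it was 0.00084 for Tead4 and 0.028 for Vgll4. Wwtr1, the gene of TAZ, stood at -0.71 on the log2 scale (edgeR FDR 0.14) and Tead2 one of 0.66 (edgeR FDR 0.15). Of 18 tested genes of a YAP signature, 4 fell and 1 rose, beside 5.34% lower and 2.96% higher over all tested genes, and the list median was -0.38. Ccn1, a secreted matrix protein gene, fell 4.76-fold to 5.15 and 5.45 CPM in KO, against 23.8 and 26.8 CPM in WT (edgeR FDR 0.0077). Amotl2, already given, Tgfb2 (log2 fold change -2.80, edgeR FDR 0.032) and Myof (-1.68, edgeR FDR 0.047) also fell. Myof is named here to complete the count, after its values were seen. Tgfb2 rests on 3 and 3 counts in KO, against 23 and 25 in WT. Its call was lost without KO library B (edgeR FDR 0.12), KO library F (0.14) or WT replicate 2 (0.072), and in DESeq2 (adjusted p 0.075). Myof lost its call without KO library B (edgeR FDR 0.18) and with library totals (0.070). Gadd45a rose 2.71-fold (edgeR FDR 0.020).

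Across the 5 lists, with genes in more than 1 list counted once, 2 of 74 tested genes rose and 4 fell, against 2.96% and 5.34% of all tested genes. These counts moved when 1 library was left out, as did the counts over all tested genes.

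Likeness of pattern was measured as the Euclidean distance between log2 CPM values over the 4 RNA-seq libraries, each gene centred on its own mean, among 12726 named genes. Nearest to Mob3b was Amotl2, at a distance of 0.064, followed by Plekhg3, at 0.085. Nearest to Mob3c were Phf11d (0.046) and the polo-like kinase gene Plk2 (0.059). Plk2 had 23.2 and 27.0 CPM in KO, against 76.4 and 74.6 CPM in WT. Mob1a was closest to the kinase gene Rps6ka3 (0.022) and Dnal1 (0.024), Mob1b to Tmtc3 (0.059) and Gpld1 (0.084), Mob2 to Lage3 (0.017) and the peroxiredoxin gene Prdx5 (0.024), and Mob3a to the tyrosine kinase gene Lck (0.0048) and Fbxo8 (0.023). With 4 libraries many genes look alike, and 15 (Mob1b) to 379 (Mob3a) genes lay within a distance of 0.2 of a member.

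Of 25 tested genes annotated within 100 kb of a member, edgeR, DESeq2 and limma voom each called 0. The unadjusted p was under 0.05 for 4 in edgeR, 3 in DESeq2 and 4 in limma voom. Around Mob3c, 4 of 7 neighbours were tested and their log2 fold changes ran from -0.41 to 0.13. Mknk1, a MAP kinase interacting kinase gene that begins 1757 bases beyond Mob3c and was picked after its values were seen, had 24.2 and 26.5 CPM in KO and 33.2 and 34.3 CPM in WT (-0.41, -1.02 to 0.19, edgeR FDR 0.39). Near Mob3b the lowest p belonged to C9orf72, picked in the same way, which lies 33760 bases away. It had 9.70 and 9.59 CPM in KO, against 21.9 and 19.7 CPM in WT (-1.11, -1.82 to -0.40, edgeR FDR 0.067). Around Mob3a, 9 of 14 neighbours were tested, between -0.27 and 0.72. Mthfd2, a mitochondrial folate enzyme gene 22 bases from Mob1a, stood at 242.2 and 202.9 CPM in KO and 226.4 and 258.8 CPM in WT (-0.12, edgeR FDR 0.79).

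Polymerase II contacts were counted as PETs with at least 1 anchor over a MOB gene or within 100 kb of it. Longer genes thus have wider windows, Mob3b the widest of the 6, and counts were not adjusted for width. Over the gene span alone Mob3a had 72 PETs in KO and 0 in WT, Mob3b 32 and 5, and Mob1a 25 and 8. The KO pool lists 401726 PETs in 118475 anchor pairs and the WT pool 35189 PETs in 19914 pairs, so a single WT PET weighs far more. With 1 pool per genotype there is no test, and the intervals are exact binomial 95% intervals for counting error only. Mob3a had by far the most contacts, 684 PETs in KO and 97 in WT, or 17.0 (15.8 to 18.4) and 27.6 (22.4 to 33.6) per 10000 PETs of the pool. That order turned with pairs of at least 2 PETs (10.5 in KO and 8.24 in WT) and with both anchors in the window (8.84 and 8.24), so no direction is given for Mob3a. Mob3b had 195 PETs in KO and 17 in WT, or 4.85 (4.20 to 5.59) and 4.83 (2.82 to 7.73) per 10000. With pairs of at least 2 PETs Mob3b had 3.51 per 10000 in KO and 0.57 in WT, from 141 and 2 PETs. With both anchors in the window Mob3b had 3.24 and 1.71, from 130 and 6 PETs. Pairs of 1 PET made up 64.7% of all pairs in KO and 74.7% in WT. A minimum of 2 PETs thus removed a larger share of pairs from the smaller WT pool, and that setting cannot compare contacts between the pools. Mob1a followed with 73 and 14 PETs, or 1.82 (1.42 to 2.29) in KO and 3.98 (2.17 to 6.67) in WT per 10000. Mob1b had 32 PETs in KO and 6 in WT, Mob2 27 in KO and 1 in WT.

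Mob3c had the fewest, 10 PETs in KO and none in WT. This is 0.25 per 10000 in KO (0.12 to 0.46), whereas 0 PETs in the smaller WT pool allow up to 0.85 per 10000 when the limit is set at 3 PETs (the exact binomial upper bound is 1.05). A difference was not detectable at this depth. Over 14139 tested genes with a position, the median was 78.0 PETs in KO and 8.00 in WT. A WT window with at least 1 PET was found for 83.7% of these genes, and a KO window for 94.4%. Mob3a exceeded 93.8% of these genes in KO and 95.8% in WT, and Mob3c 15.4% in KO. Mob3a lies among 14 annotated neighbours, and its window held 17 anchors over 57626 bases in KO and 10 anchors over 21858 bases in WT. The Mob3c window held 2 anchors over 4799 bases in KO and none in WT.

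**Figure D4:**
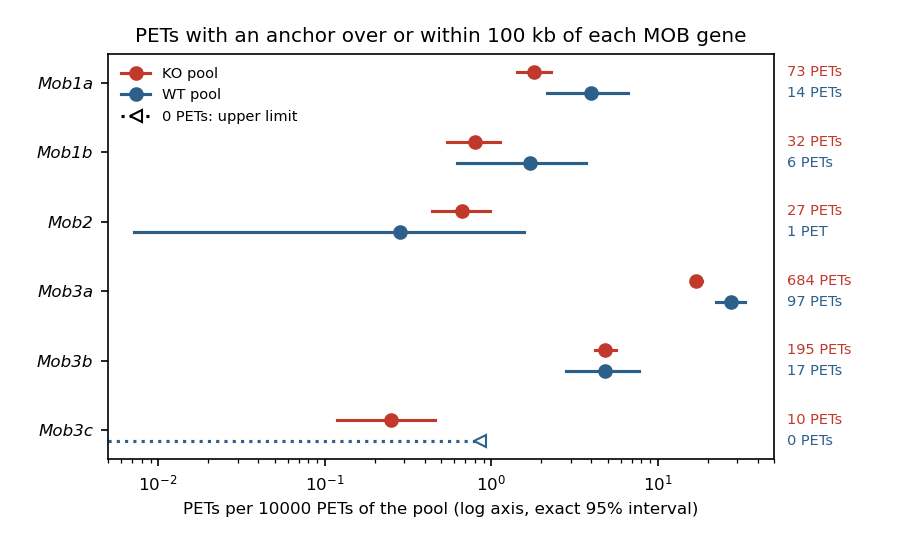
PETs with an anchor over or within 100 kb of each MOB gene, per 10000 PETs of the KO pool (red, upper) and the WT pool (blue, lower) on a log axis, with exact binomial 95% intervals for counting error and the PET counts at the right. Mob3a is highest in both pools, and the open triangle for Mob3c marks 0.85 per 10000, the limit of 3 PETs set for a count of 0 in WT.

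Anchors touched the promoter window of 5 of 6 members in KO and 3 of 6 in WT. Over all tested genes with such a window the share was 72.2% in KO and 49.7% in WT, and KO anchors were longer, with a median of 2932 bases against 1999 in WT. Mob1a, Mob1b and Mob2 had an anchor on the promoter in both pools. That of Mob1a carried 25 PETs in KO and 8 in WT, of which 8 and 3 lay within the anchor itself. Per 10000 PETs of the pool this was 0.62 (0.40 to 0.92) in KO and 2.27 (0.98 to 4.48) in WT. These intervals do not overlap, but they cover counting error only. The WT pool lists 8373 anchors and the KO pool 18293, so the PETs of the WT pool are spread over fewer anchors. The anchors of Mob1b and Mob2, given below, also had the higher share in WT. Over tested genes with a position, the median 100 kb window held 1.94 PETs per 10000 in KO and 2.27 in WT. No direction is therefore given for Mob1a. The most frequent partner of the Mob1a anchor was the anchor at Mthfd2, 5.18 kb away in KO (4 PETs) and 6.92 kb away in WT (3 PETs). In KO it also met the anchor at Bola3, 21.0 kb away, by 2 PETs. For Mob1b, every pair from its promoter anchor rested on 1 PET, 10 pairs in KO and 2 in WT. A contact with the anchor at Utp3 was listed in both pools, 163 kb away in KO and 165 kb away in WT. Mob2 had 4 PETs on its promoter anchor in KO and 1 in WT. Per 10000 PETs the Mob1b anchor had 0.25 (0.12 to 0.46) in KO and 0.57 (0.07 to 2.05) in WT. The Mob2 anchor had 0.10 (0.03 to 0.25) and 0.28 (0.007 to 1.58), and for both genes the intervals of the pools overlap.

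The promoter anchor of Mob3a was listed in the KO pool alone. It carried 72 PETs in 31 pairs, 18 of them within the anchor. Partners of the anchor included those at Mknk2 (7 PETs, 22.0 kb away), at Plekhj1 and Sf3a2 (5 PETs, 89.0 kb), a pair of anchors at Csnk1g2 (3 PETs each, the nearer 69.5 kb away), and those at Ap3d1 (4 PETs, 34.8 kb) and Btbd2 (2 PETs, 42.5 kb). An anchor 13.8 kb away that holds no gene start had 5 PETs. No WT anchor lay on that promoter, and the nearest was 24280 bases away at Mknk2. The anchor's PETs made up 1.79 per 10000 (1.40 to 2.26) in KO, and 0 PETs in WT have an exact binomial upper bound of 1.05, or 0.85 by the limit of 3 PETs. As anchors were listed separately in each pool, an anchor that was not listed gives no PETs whatever the contacts were. These partner genes are among the neighbours without a call. Mknk2 stood at -0.23 on the log2 scale (edgeR FDR 0.61), Plekhj1 at -0.09 (edgeR FDR 0.89), Sf3a2 at -0.18 (edgeR FDR 0.72) and Ap3d1 at -0.27 (edgeR FDR 0.55). Csnk1g2 stood at 0.28 (edgeR FDR 0.55) and Btbd2 at 0.72 (0.04 to 1.40, edgeR FDR 0.18).

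At Mob3b the KO anchor covered the promoter window (35155166 to 35158491 on chromosome 4), and the WT anchor began at the same base but ended 485 bases short of the window, at 35156950. The KO anchor carried 21 PETs, 12 of them within itself, and 2 joined it to an anchor at the non-coding gene Platr9, 242 kb away. The other 7 pairs had 1 PET each. In WT the anchor had 5 PETs, each of a different pair, of which 1 lay within the anchor and 1 reached the anchor at Zfp292, 267 kb away. KO also lists an anchor inside Mob3b, at 34980770 to 34984141, which met the Zfp292 anchor by 2 PETs. Over the whole span of Mob3b there were 32 PETs in KO and 5 in WT, or 0.80 (0.54 to 1.12) and 1.42 (0.46 to 3.32) per 10000. These intervals overlap.

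Neither pool lists an anchor on Mob3c. The nearest KO anchor, at Atpaf1, lay 41562 bases from its promoter window, and the nearest WT anchor, at Nsun4, 224484 bases away. In KO the 10 PETs near Mob3c came from 2 anchors, of which 1 holds the start of Atpaf1 and the other overlaps an end of Efcab14. They include 6 PETs with both ends in the same anchor and 1 that joins the anchors. Atpaf1, which encodes an assembly factor of the mitochondrial ATP synthase, had 19.8 and 22.5 CPM in KO and 26.4 and 26.5 CPM in WT (-0.32, edgeR FDR 0.53).

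**Figure D5:**
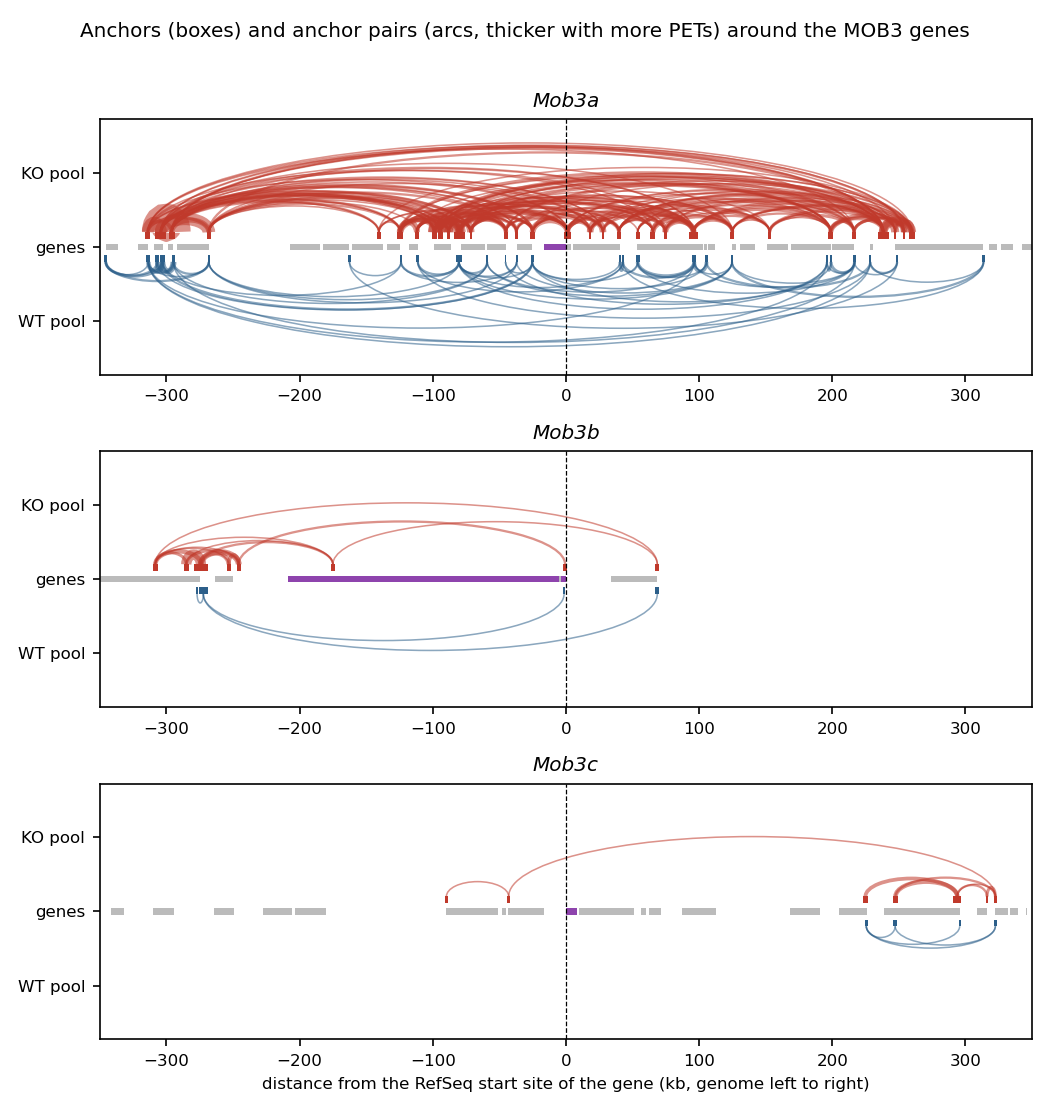
Anchors (boxes) and anchor pairs (arcs, wider with more PETs) within 350 kb of the start sites of Mob3a, Mob3b and Mob3c, with the KO pool above and the WT pool below the protein-coding genes (grey, the MOB3 gene in purple). The Mob3a region holds 258 pairs in KO and 74 in WT, the Mob3b region 21 and 5, and the Mob3c region 15 and 6, with no anchor on Mob3c itself.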

How the data were processed

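RNA-seq of 2 KO and 2 WT libraries and polymerase II HiChIP of 2 samples per genotype were used. The submitters' processing notes name HiC-Pro 2.11.4, HTSeq 0.9.1, HISAT2 2.1.0 and DESeq2 1.18.1, with the build mm10. For RNA-seq the authors deposited raw read counts for each Ensembl gene, and for HiChIP raw PET counts for each anchor pair, in 1 pooled list per genotype. The annotation release, the strand setting and the loop caller were not given in the sources used here. Reads of a gene and an overlapping one may therefore be mixed. Summary records that name no gene were left out of library sizes. They made up 64.0% to 65.5% of each file, of which reads in no gene were 37.2% to 40.5% of all records.

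The KO files carry letters and no replicate number, and nothing says whether they are separate clones. P-values then measure only the spread between these libraries. R 4.3.3 was used. Genes kept by filterByExpr were scaled by TMM and fitted by genotype alone with the quasi-likelihood F-test of edgeR 4.0.16, with Benjamini-Hochberg adjustment over all 15517 tested genes. Intervals of log2 fold changes follow from the F statistic. Alternatives were RLE factors, library totals, other filters, DESeq2 1.42.0, limma 3.58.1 voom and leaving out each library. The script was tested on simulated data. Symbols matched 52403 of 52636 identifiers, and RefSeq positions of GRCm38.p6 matched 14139 tested genes. Transcript lengths were not used here, so levels are not compared between genes. Members and gene lists were chosen with earlier results of these data known. Named were all members, Klf4 and Mob4, the 4 smallest p-values of each list, called neighbours and partners of promoter anchors, and the 2 nearest patterns per member. Counts of PETs used windows of 100 kb around each gene's span, with 1-based coordinates. Intervals of shares cover counting error only.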

Additional observations from a re-analysis of the deposited data

How the results depend on the processing

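Mob3c kept its direction in all 10 alternatives and its call in 8, and Mob3b kept its direction in all 10 and was called in 2. With no expression filter Mob3c had a log2 fold change of -1.62 and lost its call (edgeR FDR 0.12), and leaving out 1 library gave -1.76 to -1.48 with FDRs of 0.021 to 0.11. Mob3b passed with DESeq2 (-1.44, adjusted p 0.044), and leaving out 1 library gave -1.64 to -1.28 with FDRs of 0.038 to 0.21. Leaving out 1 library moved Mob1a between -0.23 and 0.49, Mob1b between -0.71 and 0.56 and Mob2 between -0.44 and 0.47, and Mob2 was 0.028 with limma voom. None of these 3 passed in any alternative. Called MOB genes lower in KO numbered 0 with no filter, 2 with DESeq2 and 0 to 2 when 1 library was left out. The counts over all genes with DESeq2 are not given here. Over all genes there were 460 higher and 828 lower calls, and with no filter, with 27254 genes tested, 1 higher and 1 lower. Leaving out 1 library gave 387 to 1151 higher and 618 to 1366 lower calls. Of the 5 pathway lists, library totals left 1 higher call and no filter left 0 higher and 0 lower. Leaving out 1 library gave 1 to 6 higher and 1 to 12 lower. PETs near the 6 genes came to 25.4 per 10000 in KO and 38.4 in WT, and to 3.63 and 4.55 over gene spans only, 11.5 and 21.9 within 50 kb, 15.6 and 11.1 in pairs of at least 2 PETs, and 13.4 and 12.5 with both anchors in the window. With pairs of at least 2 PETs and with both anchors in the window, the KO share was therefore the higher one. The minimum of 2 PETs left out 64.7% of all pairs in KO and 74.7% in WT, so that setting cannot compare the pools. The cause of these changes was not tested. No paired analysis was possible because the KO columns carry letters in place of replicate numbers. Levels per transcript length were not run. The low counts of Mob3b and Mob3c and the small WT pool limit the precision.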
